A study of Mus musculus with 12 samples.

Results

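The extracellular matrix genes *Acan*, *Comp*, *Cilp*, *Thbs4*, *Prg4*, *Sparc*, *Fstl1*, *Serpinf1*, *Crispld2* and *Lox* encode cartilage matrix proteins, lubricin and secreted proteins that act on matrix or on cells within it. They are 10 of the 26699 gene symbols measured, and none of them encodes a collagen. They were chosen by symbol because their measured levels had moved differently with CGRP in 2 macrophage subsets, or unevenly between replicates. The CGRP effects on these 10 genes are therefore given as a description, without a test. Of the 10, 9 had enough counts to enter the fit across genes and 1, *Acan*, did not.

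Whole synovium of adult C57BL/6 mice was cultured for 4 h with vehicle (control) or 100 nM calcitonin gene-related peptide (CGRP), a neuropeptide of sensory fibres. Macrophages were then sorted after collagenase digestion, and their total RNA was sequenced. The IAIE group held MHCII+ CD11c- cells (I-A/I-E is mouse MHC class II) and the CD11c group held MHCII+ CD11c+ cells. Each subset had 3 control and 3 CGRP libraries, 12 in all, and all came from wild-type tissue in which stromal cells, vessels and nerves met CGRP along with the macrophages.

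Cartilage is built from a collagen network that holds aggrecan, the large proteoglycan encoded by *Acan*, and smaller proteins that tie the parts together. Lubricin, the product of *Prg4*, coats joint surfaces and is made by lining fibroblasts and superficial chondrocytes. Matricellular proteins such as osteonectin (*Sparc*) are secreted into the matrix without being a main part of its scaffold. These genes are known chiefly from fibroblasts, chondrocytes and tendon cells, and few of them are regarded as macrophage genes.

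Promoter sequences were found for 7 of the 10 genes in RefSeq (GRCm38.p6, 250 bases before to 50 bases after the start), with no entry for *Comp*, *Prg4* and *Lox*. The 4 shown here belong to genes with contrasting patterns across libraries. *Cilp* (chr9:65264930-65265229, + strand) and *Acan* (chr7:79052976-79053275, + strand) moved together. *Thbs4* (chr13:92794769-92795068, - strand) was lower with CGRP in one subset and higher in the other, and *Crispld2* (chr8:119992188-119992487, + strand) followed other libraries than *Cilp* did. Each is written 5' to 3' on the gene's strand, and capitals mark GGAATG or its reverse complement, the core letters bound by TEAD factors.
Cilp: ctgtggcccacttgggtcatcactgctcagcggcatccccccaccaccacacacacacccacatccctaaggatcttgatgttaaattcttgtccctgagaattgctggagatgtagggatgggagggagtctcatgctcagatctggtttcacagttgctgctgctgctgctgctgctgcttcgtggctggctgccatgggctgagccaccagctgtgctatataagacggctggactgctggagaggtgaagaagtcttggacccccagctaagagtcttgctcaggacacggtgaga
Acan: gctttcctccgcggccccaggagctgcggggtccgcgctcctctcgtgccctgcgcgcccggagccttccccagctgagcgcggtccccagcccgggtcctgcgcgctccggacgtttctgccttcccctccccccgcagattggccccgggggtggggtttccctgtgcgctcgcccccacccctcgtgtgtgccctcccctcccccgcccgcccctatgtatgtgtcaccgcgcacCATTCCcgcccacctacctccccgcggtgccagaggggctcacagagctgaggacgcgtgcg
Thbs4: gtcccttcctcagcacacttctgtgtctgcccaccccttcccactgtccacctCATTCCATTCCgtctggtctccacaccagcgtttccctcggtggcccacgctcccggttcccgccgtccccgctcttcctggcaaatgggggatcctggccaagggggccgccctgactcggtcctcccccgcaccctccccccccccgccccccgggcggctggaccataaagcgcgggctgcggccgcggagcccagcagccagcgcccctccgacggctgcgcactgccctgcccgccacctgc
Crispld2: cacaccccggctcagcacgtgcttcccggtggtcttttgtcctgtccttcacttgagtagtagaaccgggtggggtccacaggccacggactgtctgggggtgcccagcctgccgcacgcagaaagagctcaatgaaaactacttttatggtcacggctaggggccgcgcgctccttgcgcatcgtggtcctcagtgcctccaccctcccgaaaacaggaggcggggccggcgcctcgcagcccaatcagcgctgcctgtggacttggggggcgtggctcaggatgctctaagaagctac
The TEAD letters were present once in *Acan*, 12 bases before the start, and 2 times in *Thbs4*, 197 and 192 bases before it. Among 32544 promoters of the same length, 14.6% held them, against 2 of these 7. None of the 7 held the full cAMP response element TGACGTCA (1.8% of all promoters), its shorter form TGACG (20.9%), the AP-1 letters TGANTCA (7.79%), TATAAA (13.6%) or the SOX letters AACAAT (10.6%). All searches covered both strands. The shorter form lies within the full element, and no other pair of motifs overlaps by construction. These matches describe letters in a window and not binding.

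Libraries held between 2127191 and 5649698 counts, and levels are given as CPM, which are counts normalised to library size with TMM scaling. The floor of 3 counts corresponded to 0.534 to 1.34 CPM, and intervals and floors cover counting error only. The labels do not say that replicates came from separate animals, so the spread between libraries may be partly technical. *Itgax*, which encodes CD11c, stood at 1.24 to 10.7 CPM in IAIE libraries and at 107 to 270 CPM in CD11c libraries, and *H2-Ab1* of MHC class II was abundant in all 12 (2085 to 11606 CPM). All 9 macrophage markers, *Csf1r* and *Adgre1* among them, were detected in every library, with summed levels of 6536 to 9876 CPM in IAIE and 3920 to 7502 CPM in CD11c libraries. In sorted bulk samples, fewer cells of a type and less RNA per cell cannot be told apart.

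The cartilage genes were considered first. *Cilp* (chr9:65265180-65280605, + strand, 11 exon blocks) encodes cartilage intermediate layer protein, a secreted protein of cartilage and tendon matrix. *Cilp* stood at 0.931, 1.72 and 4.48 CPM in IAIE control libraries 1 to 3 and at 0, 0 and 0.566 CPM in IAIE CGRP libraries. In CD11c control libraries it was at 0, 0 and 0.215 CPM, and in CD11c CGRP libraries 1 to 3 at 60.6, 176 and 2.31 CPM. The groups did not overlap in either subset, and they separated in opposite directions. In IAIE cells control library 1 and CGRP library 3 held 3 counts each, so scaling to library size alone parted these libraries. CD11c control libraries held 1 *Cilp* count in all against 1040 with CGRP, a 796-fold higher pooled level with an exact 95% counting interval of 143 to 31482. In IAIE cells 19 counts in control libraries stood against 3 with CGRP, a 9.34-fold lower level (interval 2.75 to 49.3).

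*Acan* (chr7:79053483-79115099, + strand, 18 exon blocks) followed the same libraries at lower counts. It stood at 2.17, 0.573 and 1.79 CPM in IAIE control and at 0, 0.486 and 0 CPM in IAIE CGRP libraries. In CD11c cells *Acan* was at 0, 0 and 0.644 CPM in control and at 7.10, 27.7 and 0.890 CPM in CGRP libraries. CD11c CGRP library 3 exceeded the highest control only slightly, while libraries 1 and 2 were well above it. Pooled over libraries, *Acan* was 39.3-fold higher with CGRP in CD11c cells (3 against 154 counts, interval 13.2 to 193) and 9.59-fold lower in IAIE cells (13 against 2 counts, interval 2.17 to 87.5).

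*Comp* (chr8:70373558-70382066, + strand, 20 exon blocks) encodes cartilage oligomeric matrix protein, a pentameric thrombospondin that binds collagen fibrils. In IAIE cells *Comp* stood at 2.79, 5.16 and 14.8 CPM without CGRP and at 3.71, 0.729 and 0.754 CPM with it, so the groups overlapped. In CD11c cells it was at 4.49, 1.40 and 1.07 CPM in control and at 29.5, 195 and 6.58 CPM in CGRP libraries, with every CGRP library above every control. The mean was 33.2-fold higher with CGRP in CD11c cells, a fitted log2 change of 5.21 ± 0.99 (SE, n = 3 per group). Without CD11c CGRP library 2 this change was 3.07, and in IAIE cells the fitted log2 change was -2.11 ± 1.11, with -1.26 without IAIE control library 3 and -3.20 without IAIE CGRP library 1.

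*Thbs4* (chr13:92751590-92794818, - strand, 22 exon blocks) encodes thrombospondin 4, a relative of COMP found in tendon and muscle matrix. *Thbs4* stood at 7.755, 9.17 and 11.2 CPM in IAIE control and at 1.32, 0.486 and 0.377 CPM in IAIE CGRP libraries. In CD11c cells it was at 1.22, 0 and 0 CPM in control and at 24.5, 20.8 and 52.8 CPM in CGRP libraries. The 2 treatments did not overlap in either subset, and here CD11c CGRP library 3 was the highest of all 12. The mean was 12.9-fold lower with CGRP in IAIE cells (log2 change -3.69 ± 0.65), whereas in CD11c cells 509 counts with CGRP stood against 3 without, a 130-fold higher pooled level (interval 44.2 to 632).

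**Figure D1:**
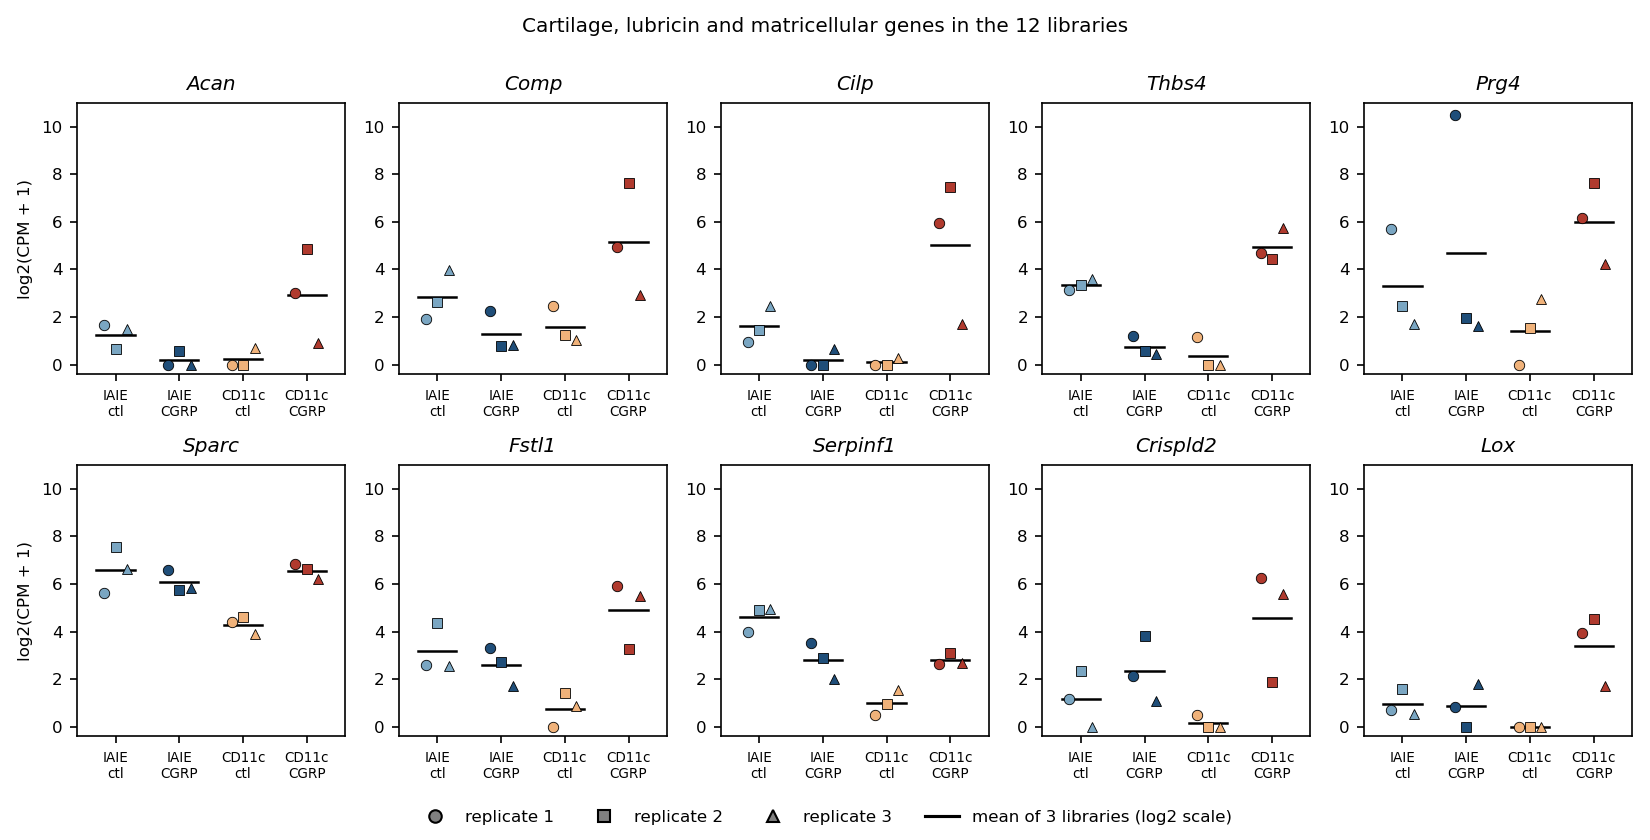
Level of each of the 10 genes as log2(CPM + 1) in the 12 libraries; colours mark the 4 groups, symbols the replicate number and bars the mean of the 3 log2 values. All CGRP-treated CD11c libraries lie above the CD11c control libraries for every gene, and *Prg4* reaches 1433 CPM in IAIE CGRP library 1 alone.

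*Prg4* (chr1:150449412-150466165, - strand, 13 exon blocks) was the most uneven gene. In IAIE control libraries it stood at 51.2, 4.59 and 2.24 CPM. In IAIE CGRP libraries it was at 1433, 2.92 and 2.07 CPM, so that library 1 carried 99.7% of the summed level. CD11c control libraries were at 0, 1.87 and 5.79 CPM and CD11c CGRP libraries at 69.6, 197 and 17.6 CPM. The IAIE groups overlapped, since IAIE CGRP libraries 2 and 3 lay within the range of the controls or below it, while the CD11c groups did not overlap. The fitted log2 change in IAIE cells was 4.57 ± 1.52 with all libraries and -2.98 without IAIE CGRP library 1. In CD11c cells the mean was 37.0-fold higher with CGRP (log2 4.96 ± 1.85), and 3.85 on the log2 scale without CD11c CGRP library 2. IAIE CGRP library 1 also held the highest sum of the 3 lining fibroblast markers *Clic5*, *Tspan15* and *Col22a1*, 10.6 CPM against 0 to 5.95 CPM in the other libraries. *Col22a1* carried most of it at 7.15 CPM, while *Tspan15* (0.265 CPM) lay below all IAIE controls (0.895 to 1.43 CPM). *Clic5* stood at 3.18 CPM, below the 4.41 CPM of CD11c CGRP library 1. CD11c CGRP library 2, at 197 CPM for *Prg4*, had a lining sum of only 0.990 CPM. The part of these markers in the *Prg4* level was not tested. A 204-base stretch of *Prg4* exons (4.77% of its exon length) lies antisense to exons of *Tpr*, and the strand setting of the counting is not given in the sources used here.

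Among the matricellular genes, *Sparc* (chr11:55394500-55423183, - strand, 12 exon blocks) encodes a calcium- and collagen-binding glycoprotein and was detected in every library. It stood at 47.8, 189 and 97.6 CPM in IAIE control and at 94.8, 53.2 and 56.4 CPM in IAIE CGRP libraries. In CD11c cells *Sparc* was at 19.99, 23.1 and 13.9 CPM in control and at 113, 98.3 and 73.5 CPM in CGRP libraries. The IAIE groups overlapped, and in CD11c cells all 3 CGRP libraries lay well above the controls. The mean in CD11c cells was 4.99-fold higher with CGRP (log2 2.33 ± 0.37). The log2 change in IAIE cells was -0.72 ± 0.34 with all libraries and -0.06 without IAIE control library 2.

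*Fstl1* (chr16:37776873-37836514, + strand, 12 exon blocks) encodes follistatin-like 1, a secreted glycoprotein with a SPARC-like domain. It stood at 4.96, 19.8 and 4.92 CPM in IAIE control and at 8.999, 5.59 and 2.26 CPM in IAIE CGRP libraries. In CD11c cells it was at 0, 1.64 and 0.858 CPM in control and at 59.5, 8.66 and 43.9 CPM in CGRP libraries. CD11c CGRP library 2, the highest for *Cilp*, *Acan* and *Comp*, was the lowest of its group for *Fstl1*. The CD11c mean was 44.9-fold higher with CGRP (log2 5.27 ± 0.82). In IAIE cells the log2 change was -0.88 ± 0.67, and it was 0.17 without IAIE control library 2. Sequence of 31 bases shared with other genes made up 8.45% of the *Fstl1* transcripts, which could move some reads between genes.

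IAIE control library 2, the highest IAIE library for *Sparc* and *Fstl1*, also had the highest sum of the 10 fibroblast markers, 1556 CPM against 204 to 780 CPM in the other 11 libraries. *Col1a1*, the main fibroblast collagen, stood at 670 CPM in it against 35.1 and 91.8 CPM in the other IAIE control libraries. Together with *Col1a2* (284 CPM) and *Col3a1* (356 CPM) it carried most of the sum. *Pdgfra*, *Dcn* and *Lum* were also highest in this library among IAIE controls. *Fap* (2.58 CPM), *Dpt* (1.15 CPM) and *Thy1* (0 CPM) were lowest in it, and *Pdpn* lay between the other IAIE controls. The part of these markers in the *Sparc* and *Fstl1* levels was not tested.

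*Serpinf1* (chr11:75409769-75422701, - strand, 9 exon blocks) encodes pigment epithelium-derived factor, a secreted serpin known to inhibit vessel growth. It stood at 14.9, 29.2 and 29.5 CPM in IAIE control and at 10.6, 6.32 and 3.02 CPM in IAIE CGRP libraries. In CD11c cells *Serpinf1* was at 0.408, 0.935 and 1.93 CPM in control and at 5.18, 7.67 and 5.34 CPM in CGRP libraries. Neither subset showed overlap between treatments, and after CGRP the 2 subsets lay in the same range. The mean was 3.70-fold lower with CGRP in IAIE cells (log2 -1.899 ± 0.46) and 5.56-fold higher in CD11c cells (log2 2.31 ± 0.56).

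*Crispld2* (chr8:119992438-120052793, + strand, 17 exon blocks) encodes a secreted protein with a CAP domain that is known as a glucocorticoid-responsive gene. It stood at 1.24, 4.01 and 0 CPM in IAIE control and at 3.44, 12.9 and 1.13 CPM in IAIE CGRP libraries, which overlapped (log2 change 1.55 ± 1.04). This change was 0.18 without IAIE CGRP library 2 and 2.96 without IAIE control library 2. In CD11c cells it was at 0.408, 0 and 0 CPM in control and at 75.0, 2.72 and 46.1 CPM in CGRP libraries. *Cilp* was highest in library 2 and lowest in library 3 of this group, whereas for *Crispld2* libraries 1 and 3 were high and library 2 low. All 3 lay above the controls for *Crispld2*. The CD11c controls held 1 count in all against 661 with CGRP, a 506-fold higher pooled level (interval 90.5 to 20020).

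*Lox* (chr18:52516067-52529867, - strand, 8 exon blocks) encodes lysyl oxidase, the enzyme that starts the crosslinking of collagen and elastin. It stood at 0.620, 2.01 and 0.448 CPM in IAIE control and at 0.794, 0 and 2.45 CPM in IAIE CGRP libraries, so these groups overlapped with nearly equal means. No CD11c control library held a *Lox* count, whereas the CD11c CGRP libraries were at 14.4, 22.3 and 2.31 CPM. Against these controls the CGRP mean was higher by at least 15.2-fold, taking the floor of 3 counts per control library. A 30-base stretch of *Lox* exons lies opposite the antisense gene *AC161119.1*.

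In CD11c cells, then, all 10 genes were higher in each CGRP library than in each control library, and across the 11927 genes tested the same separation held for 15.4%. In IAIE cells *Acan*, *Cilp*, *Thbs4* and *Serpinf1* were lower without overlap, a pattern of 12% of tested genes. For *Acan* (2 counts) and *Cilp* (3 counts) the nearest libraries of the IAIE groups held equal counts, and only scaling to library size kept them apart. Some stromal markers also fell with CGRP in IAIE cells by edgeR: *Col1a1* (log2 -3.05 ± 0.77, adjusted p = 0.015), *Col1a2* (-2.37 ± 0.61, adjusted p = 0.017), *Col3a1* (-2.52 ± 0.67, adjusted p = 0.022) and *Fmod* (-3.30 ± 1.02, adjusted p = 0.048). The collagen calls were lost without IAIE control library 2 (adjusted p 0.30 to 0.42) or IAIE CGRP library 2 (0.086 to 0.11). Without IAIE CGRP library 3, *Col1a1* and *Col3a1* were lost (0.067 and 0.053), and without IAIE CGRP library 1 *Col3a1* (0.052). The *Fmod* call was lost without IAIE control library 1 (0.63) or any IAIE CGRP library (0.084 to 0.16). *Pdpn*, another fibroblast marker, rose (log2 1.72 ± 0.15, adjusted p = 1.2e-06, edgeR). Without *Pdpn* the fibroblast sum was 131, 1382 and 309 CPM in IAIE control and 147, 54.9 and 105 CPM in IAIE CGRP libraries. Mural and endothelial sums did not fall. The mural sum was 54.5 to 72.9 CPM in IAIE control and 66.8 to 172 CPM in IAIE CGRP libraries, and the endothelial sum 14.6 to 19.7 and 25.8 to 37.2 CPM. The part of these cells in the IAIE levels of the 10 genes was not tested. The rule used both contrasts, so nothing is read from the counts of the 10 genes. The fit across all genes called 9.21% of genes changed with CGRP in IAIE cells and 10.9% in CD11c cells. Of the tested genes, 52 (0.436%) separated downwards in IAIE cells and upwards in CD11c cells as *Cilp*, *Thbs4* and *Serpinf1* did.

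**Figure D2:**
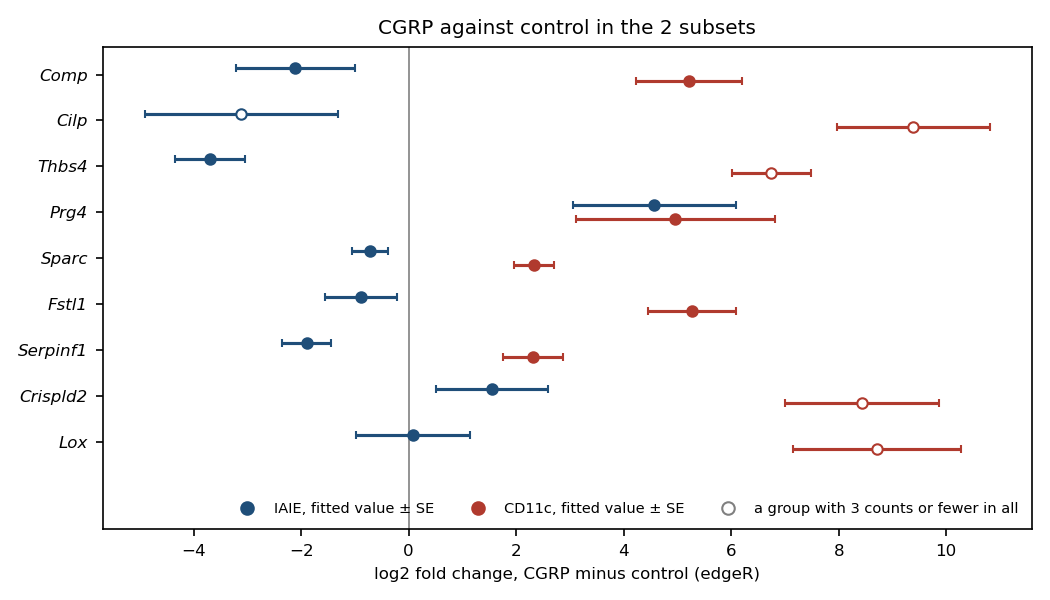
Fitted log2 fold change with CGRP (± SE, 3 libraries per group) for the 9 genes that entered the fit, in IAIE (blue) and CD11c cells (red). Open symbols mark a comparison in which a group held 3 counts or fewer in all, where the fitted value depends on the prior count; in CD11c cells all 9 values lie above 0 and in IAIE cells 6 lie below 0 with all libraries included.

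The CD11c CGRP libraries divided the genes by library. Library 2 carried 84.4% of the summed CPM of *Comp* over the 3 libraries, 77.6% of *Acan*, 73.7% of *Cilp*, 69.3% of *Prg4* and 57.2% of *Lox*. It carried 2.2% of *Crispld2* and 7.73% of *Fstl1*, for which library 1 gave 60.6% and 53.1%. *Sparc* and *Serpinf1* were spread more evenly, with 25.8% to 42.2% in each library, and library 3 carried 53.8% of *Thbs4*.

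Markers of other cells moved with this division. *Chad* and *Col2a1*, which mark chondrocytes, had 91% and 97.4% of their CD11c CGRP level in library 2, and the sum of the 11 chondrocyte markers found in the files was 37.2, 217 and 6.76 CPM in CD11c CGRP libraries 1 to 3 against 5.35 to 16.1 CPM in the other 9. *Chad* carried most of the library 2 sum at 159 CPM, and *Col2a1* added 28.7 CPM. *Col11a1*, *Col11a2* and *Hapln1* were also highest in library 2 of this group. In contrast, *Sox9* was highest in library 1 (6.90, 3.47 and 0.534 CPM). *Col9a3* was nearly equal in libraries 1 and 2 (4.41 and 4.46 CPM). The cartilage markers *Matn1*, *Col9a1*, *Col9a2* and *Cnmd* were at 0 in library 2. *Myh11* and *Acta2*, smooth muscle genes of vessel walls, were at 0 in library 2 and had 73.9% and 62.4% of their level in library 1. The sum of 9 mural markers was 372, 58.7 and 203 CPM in CD11c CGRP libraries 1 to 3 and 26.9 to 34.3 CPM in CD11c controls. By edgeR 6 of its 7 tested members rose with CGRP in CD11c cells. The mural marker *Cspg4* did not follow the division, at 58.7, 50.7 and 37.7 CPM, and it carried most of the sum in library 2. The tendon list summed to 10.2, 19.1 and 20.5 CPM in CD11c CGRP libraries against 1.22 to 2.15 CPM in CD11c controls, most of it *Fmod*. The fibroblast list summed to 446 to 702 CPM against 204 to 278 CPM, and 3 of its 8 tested members rose. *Pdpn* carried most of these sums, and without it they were 59.6 to 294 CPM against 25.7 to 33.5 CPM, while *Thy1* stood at 0.575 to 1.07 CPM and *Lum* was at 0 in libraries 2 and 3. Macrophage markers summed to 3920 to 4963 CPM with CGRP and 5674 to 7502 CPM in CD11c controls. *Lyz2* carried most of these sums, at 5389, 3725 and 3990 CPM in CD11c control and 2757, 2869 and 2414 CPM in CD11c CGRP libraries. By edgeR *Lyz2* fell (log2 -0.70 ± 0.15, adjusted p = 0.0031) and *Fcgr1* rose (1.78 ± 0.25, adjusted p = 6.0e-05). The other macrophage markers did not pass. Osteoblast, skeletal muscle, endothelial and Schwann cell sums of the CD11c groups overlapped. The endothelial sum was 84.0, 19.8 and 103 CPM in CD11c CGRP libraries 1 to 3, lowest in library 2 as the mural sum was. In CD11c control libraries it was 186, 23.6 and 19.1 CPM. The part of these cells in the levels of the 10 genes was not tested.

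**Figure D3:**
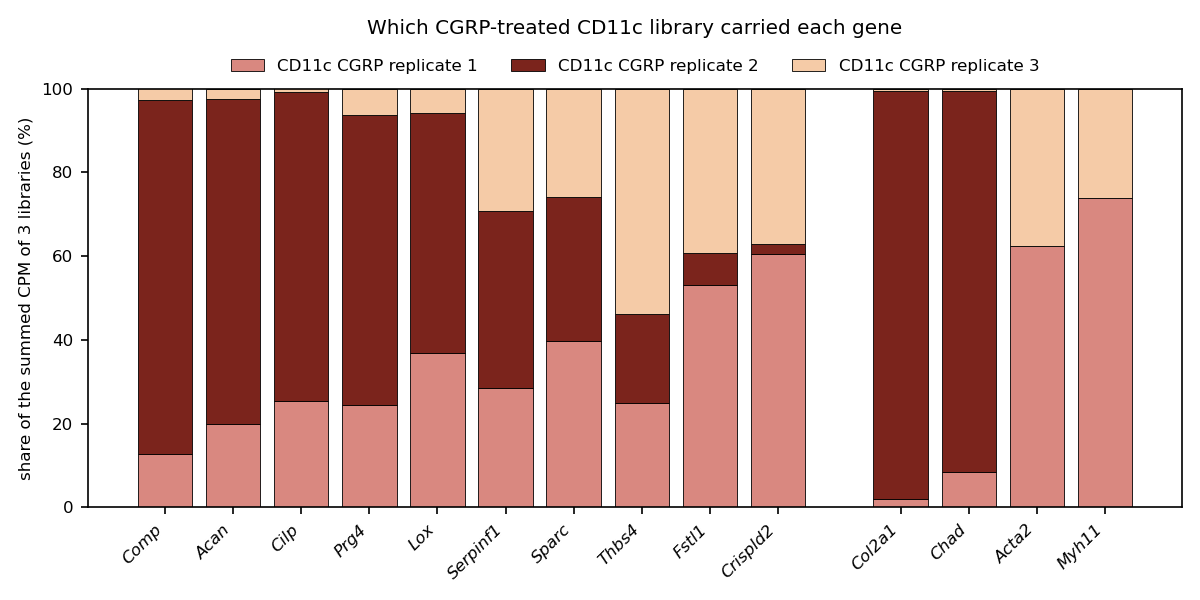
Share of each gene's summed CPM that came from each of the 3 CGRP-treated CD11c libraries (bars add to 100%), for the 10 genes and, at the right, chondrocyte markers (*Col2a1*, *Chad*) and mural markers (*Acta2*, *Myh11*). *Comp*, *Acan*, *Cilp* and *Prg4* come mostly from replicate 2 with *Col2a1* and *Chad*. *Fstl1* and *Crispld2* come mostly from replicates 1 and 3 with *Acta2* and *Myh11*, and other markers of these lists are not drawn.

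Across the 12 libraries part of this grouping appeared in the correlations of log2(CPM + 1), which share depth and treatment and are given as a description. *Prg4* did not follow it, with r of 0.46, 0.45 and 0.42 with *Acan*, *Comp* and *Cilp* and 0.50 with *Fstl1*. Pearson's r was 0.95 for *Acan* and *Cilp*, 0.93 for *Comp* and *Cilp*, 0.92 for *Cilp* and *Lox* and 0.86 for *Fstl1* and *Crispld2*. It was 0.80 for *Sparc* and *Serpinf1*, 0.79 for *Thbs4* and *Fstl1* and 0.14 for *Serpinf1* and *Crispld2*. Of other tested genes, those most like *Comp* were *Timp3*, *Mgp* and *Col11a1* (r 0.87 to 0.91), and those most like *Cilp* were *Tnfrsf11b*, *Col12a1* and *Serpine2* (0.89 to 0.92). *Lox* was nearest to *Abi3bp*, *Ccn2* and *Tnfrsf11b* (0.89 to 0.93), *Thbs4* to *Map1b*, *Tmx4* and *Col6a3* (0.88 to 0.90), and *Sparc* to *Olfml2b*, *Dock6* and *Fat1* (0.88 to 0.90). *Fstl1* was nearest to *Antxr1*, *Rgs16* and *Itga7* (0.87 to 0.92), *Crispld2* to *Rgs16*, *Rasd1* and *Nos3* (0.90 to 0.92), and *Serpinf1* to *Cxcl12*, *Rbm3os* and *Bora* (0.93 to 0.94). For *Prg4* the nearest genes, *Gm8524*, *Ntmt1* and *Zbtb5* (0.82 to 0.84), ranged only from 0.895 to 16.4 CPM, and like *Prg4* they peaked in IAIE CGRP library 1.

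Per kilobase of exon, which allows genes to be compared, *Sparc* was the highest of the 10 in both control groups, at 29.4 ± 18.9 CPM per kb (SD, n = 3) in IAIE and 5.02 ± 1.23 in CD11c cells. *Serpinf1* followed in IAIE control libraries at 10.4 ± 3.55 CPM per kb, and *Acan* was the lowest there at 0.202 ± 0.112. After CGRP the order in CD11c cells was *Comp* (25.9 ± 34.6), *Sparc* (25.1 ± 5.29), *Prg4* (22.1 ± 21.5), *Cilp* (18.7 ± 20.8), *Thbs4* (9.95 ± 5.33), *Crispld2* (8.64 ± 7.61), *Fstl1* (7.60 ± 5.30), *Lox* (2.72 ± 2.10), *Serpinf1* (2.57 ± 0.592) and *Acan* (1.59 ± 1.88). No pair of neighbours in that order differed by more than the larger of their SDs.

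The level in CD11c against IAIE cells, averaged over both treatments, was not used to choose the genes and was tested with edgeR. Past an adjusted p of 0.05 were 2 of the 9 tested genes, both lower in CD11c cells, while 29.7% of all tested genes passed in this comparison. *Serpinf1* ranged from 3.02 to 29.5 CPM (median 12.7) in the 6 IAIE libraries and from 0.408 to 7.67 CPM (median 3.55) in the 6 CD11c libraries, a log2 difference of -2.23 ± 0.36 (adjusted p = 8.9e-05, edgeR). *Sparc* ranged from 47.8 to 189 CPM (median 75.6) and from 13.9 to 113 CPM (median 48.3), a log2 difference of -1.04 ± 0.25 (adjusted p = 0.0034, edgeR). For both genes the 6 libraries of one subset overlapped those of the other. The averaged difference was not shared by both treatments. *Sparc* averaged 111.5 CPM in IAIE and 19.0 CPM in CD11c controls but 68.1 and 94.97 CPM after CGRP, and *Serpinf1* 24.6 and 1.09 CPM in controls but 6.64 and 6.06 CPM after CGRP.

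The other 7 genes did not pass. *Comp* (log2 1.86 ± 0.79, adjusted p = 0.085, edgeR) was higher in CD11c cells on average. *Prg4* (-2.55 ± 1.198, adjusted p = 0.12, edgeR) was lower, and the value turned to 1.25 without IAIE CGRP library 1. *Cilp*, *Thbs4*, *Fstl1*, *Crispld2* and *Lox* had log2 differences between -0.85 and 2.02 with adjusted p between 0.51 and 0.83 (edgeR). Leaving out 1 library brought *Comp* past the threshold without CD11c CGRP library 1 (adjusted p = 0.047, edgeR) or 3 (adjusted p = 0.011), while without CD11c CGRP library 2 its difference was 0.82 (adjusted p = 0.32). *Prg4* passed without IAIE CGRP library 3 (adjusted p = 0.043).

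**Figure D4:**
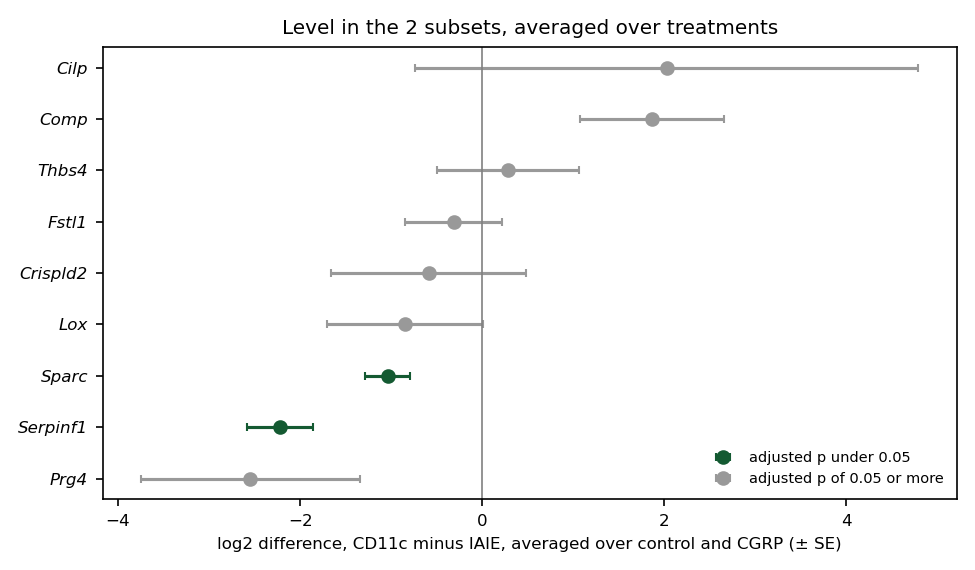
Log2 difference in level between CD11c and IAIE cells, averaged over control and CGRP libraries (± SE, 6 libraries per subset), for the 9 tested genes. Green marks an adjusted p under 0.05 (edgeR over 11927 genes): *Serpinf1* and *Sparc* lie below 0 with short error bars, and the intervals of *Cilp* and *Prg4* are wide.

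Genes related to the 10 by family or function were then tested in the CGRP comparisons. The 12 lists held 119 genes, 110 of them in the files and 72 tested. In IAIE cells 6 of the 72 (8.33%) passed an adjusted p of 0.05, 4 higher and 2 lower, with a median log2 change of -0.13 against -0.02 over all tested genes. In CD11c cells 19 (26.4%) passed, 17 higher and 2 lower, with a median of 0.60 against 0.00. The subset-by-CGRP interaction was passed by 1 of the 72 (1.39%) and by 0.151% of all genes. The lists were drawn up with earlier results known, and nothing particular to them is read from these shares.

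Among relatives of the cartilage genes, *Thbs1*, the most abundant of the 3 listed thrombospondins, stood at 3316, 7763 and 6018 CPM in IAIE control, 8151, 9121 and 15088 in IAIE CGRP, 4836, 7244 and 6996 in CD11c control and 17045, 19880 and 20789 CPM in CD11c CGRP libraries. It rose in both subsets (IAIE log2 0.92 ± 0.24, adjusted p = 0.021; CD11c 1.60 ± 0.25, adjusted p = 0.00021; edgeR). *Thbs2* rose in CD11c cells from 0, 0.701 and 0.429 to 6.33, 4.21 and 9.96 CPM (adjusted p = 0.017, edgeR). *Cilp2*, the paralog of *Cilp*, stood at 0.816, 0.468 and 0.644 CPM in CD11c control and 12.85, 42.3 and 1.96 CPM in CD11c CGRP libraries, with the same library 2 peak as *Cilp* (log2 4.86 ± 1.28, adjusted p = 0.020, edgeR). In IAIE cells *Cilp2* fell from 13.3, 0 and 0.448 CPM to 0 in all 3 libraries (adjusted p = 0.039), and 1 control library decided it, since without IAIE control library 1 the adjusted p was 0.62 (edgeR). *Vcan*, the proteoglycan versican, rose in CD11c cells (log2 1.61 ± 0.34, adjusted p = 0.0036, edgeR). The link protein and matrilin genes were mostly too low to test, with 3 of 15 list members in the files tested. *Chad*, which encodes chondroadherin, was at 14.8, 159 and 0.890 CPM in CD11c CGRP libraries 1 to 3. Its counts lay mainly in libraries 1 and 2, and it did not enter the fit. Hyaluronan synthases (2 tested), elastic fibre genes (1 tested) and CAP domain genes (1 tested) had no member past the threshold in either subset.

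Among relatives of *Sparc*, *Fstl1* and *Lox*, *Sparcl1* rose in CD11c cells from 5.30, 2.34 and 1.93 to 99.0, 2.72 and 73.1 CPM (adjusted p = 0.021, edgeR), with library 2 low as for *Fstl1* and *Crispld2*. *Plod2*, a collagen lysyl hydroxylase, rose from 0, 0 and 0.429 to 6.33, 6.19 and 4.80 CPM (adjusted p = 0.0053), and the other 5 tested crosslinking genes did not pass. Of 12 tested matricellular and adhesive genes, *Tnc* (tenascin C, log2 5.56 ± 1.08, adjusted p = 0.0017), *Tnxb* (2.04 ± 0.43, adjusted p = 0.0034) and *Ccn2* (6.79 ± 1.19, adjusted p = 0.00067) rose in CD11c cells by edgeR. *Ccn2* stood at 16.3, 46.8 and 6.41 CPM in CD11c CGRP libraries, again highest in library 2. *Fn1*, fibronectin, fell in CD11c cells from 6398, 5498 and 5515 to 2807, 2796 and 2494 CPM (log2 -1.10 ± 0.26, adjusted p = 0.0084, edgeR).

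Among serpins related to *Serpinf1*, the following rose in CD11c cells by edgeR. *Serping1*, the C1 inhibitor, went from 0.816, 0.701 and 1.29 to 20.5, 2.97 and 7.47 CPM (adjusted p = 0.0073), *Serpine2* from 0, 0 and 1.29 to 5.75, 17.6 and 3.02 CPM (adjusted p = 0.024), and *Serpina3n* from 0 in all 3 to 2.88, 2.72 and 0.534 CPM (adjusted p = 0.021).

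Among 12 tested receptors that bind these proteins, the thrombospondin receptor *Cd36* rose in both subsets (IAIE log2 0.76 ± 0.14, adjusted p = 0.00096; CD11c 1.496 ± 0.14, adjusted p = 1.3e-06; edgeR), and so did the integrin gene *Itgav* (0.80 ± 0.16, adjusted p = 0.0033; 0.78 ± 0.16, adjusted p = 0.0033; edgeR). *Cd44*, the hyaluronan receptor, fell in CD11c cells (log2 -1.01 ± 0.12, adjusted p = 1.3e-05, edgeR). *Stab1*, which clears SPARC, fell in IAIE cells (log2 -0.75 ± 0.15, adjusted p = 0.0024, edgeR). Of 11 tested matrix-processing enzymes, cathepsin L (*Ctsl*) rose in IAIE cells (log2 0.63 ± 0.17, adjusted p = 0.027, edgeR). *Htra1*, a secreted serine protease of cartilage and synovium, rose in CD11c cells from 1.63, 1.40 and 1.07 to 14.0, 12.4 and 7.83 CPM (log2 3.06 ± 0.63, adjusted p = 0.0026, edgeR). In IAIE cells *Htra1* stood at 4.96, 2.01 and 9.40 CPM in control and 3.44, 0.972 and 1.51 CPM in CGRP libraries, and its interaction passed (log2 4.49 ± 0.87, adjusted p = 0.042, edgeR). With the replicate number as a block 3 related genes passed the interaction (*Htra1*, *Cilp2* and *Serping1*). With the replicate number as a block within each treatment 5 passed, which added *Cd36* and *Ctss*. The labels do not say whether libraries of the same number came from the same explant. Of the 12 regulators tested, *Creb5* rose in CD11c cells (log2 1.03 ± 0.26, adjusted p = 0.014, edgeR).

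**Figure D5:**
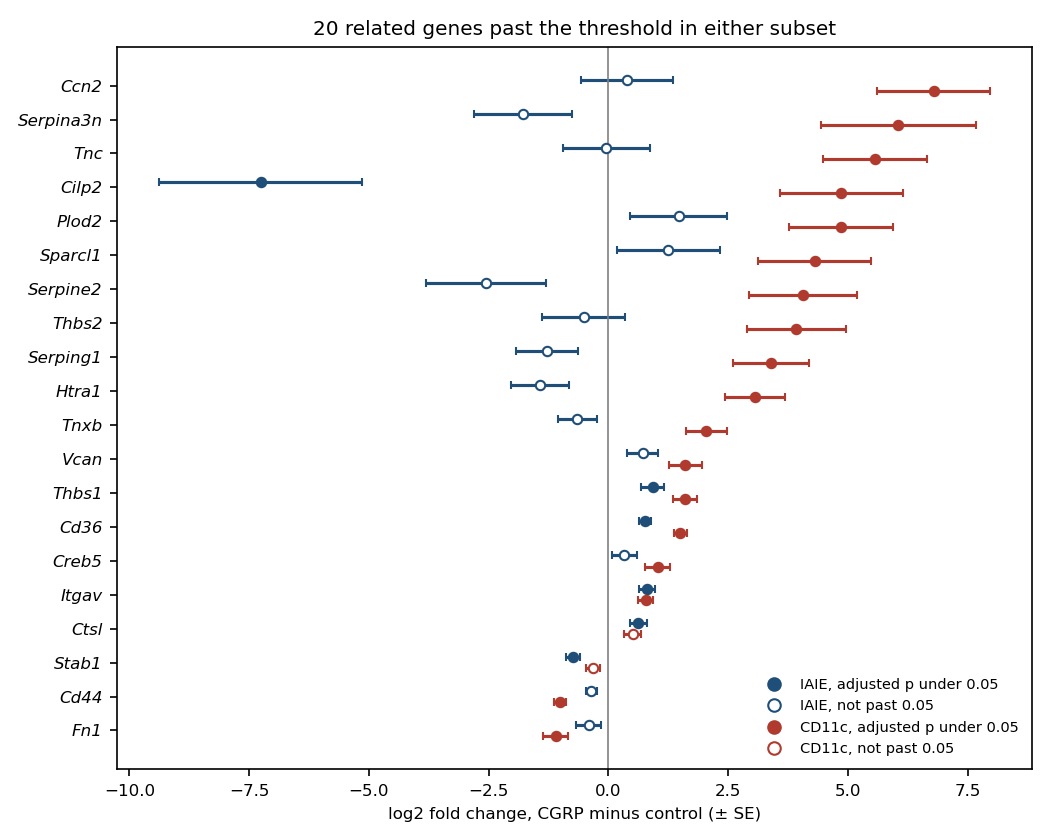
Log2 fold change with CGRP (± SE) in IAIE and CD11c cells for 20 related genes past an adjusted p of 0.05 in either subset (filled symbols, edgeR). *Ccn2*, *Serpina3n* and *Tnc* have the highest CD11c values, and *Cd44*, *Fn1* and *Stab1* lie below 0 in both subsets.

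Several of these calls were lost when 1 library was left out (edgeR). In IAIE cells this held for *Cilp2* (without IAIE control 1, CD11c control 2 or 3 or any IAIE CGRP library, adjusted p 0.051 to 0.62), *Ctsl* (without IAIE control 1 or 2 or any IAIE CGRP library, 0.050 to 0.082) and *Thbs1* (without IAIE control 1 or IAIE CGRP 3, 0.086 and 0.15). In CD11c cells it held for *Cilp2* (any CD11c control or CD11c CGRP 2, 0.054 to 0.15), *Creb5* (CD11c control 2 or 3, 0.061 and 0.10), *Serpina3n* (any CD11c control or CD11c CGRP 1 or 2, 0.057 to 0.085) and *Serping1* (CD11c CGRP 1, 0.062). It also held for *Serpine2* (CD11c control 1 or 2 or CD11c CGRP 2, 0.078 to 0.20), *Sparcl1* (CD11c control 2 or 3 or CD11c CGRP 1, 0.068 to 0.096) and *Thbs2* (CD11c control 1 or 3 or CD11c CGRP 3, 0.056 to 0.075). The *Htra1* interaction was lost without any 1 of 9 libraries, all but IAIE control 2, IAIE CGRP 1 and CD11c CGRP 3 (0.055 to 0.13). Other fits ended further calls. DESeq2 ended *Thbs1* in IAIE and *Cilp2* in CD11c cells, and limma-voom ended the *Cilp2* call in both subsets, the *Htra1* interaction and the CD11c calls of *Ccn2*, *Tnc*, *Thbs2*, *Sparcl1*, *Serping1*, *Serpine2* and *Serpina3n*.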

How the data were processed

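Whole-transcriptome libraries were made from sorted synovial macrophages with a stranded total RNA kit (4 groups of 3). The authors trimmed reads with Trim Galore, used HISAT2 for alignment to mm10 and featureCounts for counting by gene, and the deposited values are raw counts. Versions and strand setting are not given in the sources used here. The combined table repeats these counts for the 12 libraries, and its 6 other columns were not used.

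Genes were filtered by filterByExpr (minimum count 10, total 15), leaving 11927, scaled by TMM and fitted together in edgeR 4.0.16 (R 4.3.3) with a quasi-likelihood test and Benjamini-Hochberg adjustment. SEs are the log2 change divided by the square root of F. Other fits used DESeq2 1.42.0, limma 3.58.1 and sva 3.50.0, RLE and upper-quartile scaling, other filters, blocks, and each library left out. The fits were tested on simulated data. Members and lists were chosen with earlier results of these data known. All 10 members are named, and related genes where they passed the threshold (up to 4 per list, plus interactions), except 1 that is counted but not reported here. Coordinates and exon lengths are from GENCODE M21 (GRCm38).

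As a pairing check over 5411 genes, each library was expressed as its deviation from its group mean, and the 2 subsets were correlated within each replicate number. CGRP libraries gave r of 0.33, 0.13 and 0.20 and control libraries 0.10, 0.02 and 0.03. Between treatments, same-numbered CD11c libraries gave r of 0.19, 0.11 and -0.01, and IAIE libraries 0.07, -0.04 and -0.03. Libraries of different numbers were not correlated for comparison, so these values cannot tell which libraries the numbers pair.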

Additional observations from a re-analysis of the deposited data

Results flagged for a closer look

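*Htra1* was the related gene whose response to CGRP differed between the subsets by a test of the difference itself (interaction log2 4.49, edgeR). Its adjusted p of 0.042 passed 0.05 narrowly, and ranged from 0.00056 to 0.24 over 20 other fits, 10 of which lost the call.

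For *Acan*, *Cilp*, *Thbs4* and *Serpinf1* every CGRP library lay below every control library in IAIE cells and above every control library in CD11c cells. The IAIE separation of *Acan* and *Cilp* rested on scaling to library size, since their nearest libraries held equal counts (2 each for *Acan*, 3 each for *Cilp*). The difference between the 2 responses on the log2(CPM + 1) scale was 3.76 for *Acan*, 6.35 for *Cilp*, 7.18 for *Thbs4* and 3.61 for *Serpinf1*. These differences were not tested, because the genes were chosen for them.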

How the results depend on the processing

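The members past the threshold between subsets numbered 2 in the main fit, 4 with every gene of at least 1 count (10 members tested) and 1 with at least 10 counts in every library (1 member tested). Leaving out libraries gave 2 to 3. *Serpinf1* passed in all 20 other fits and *Sparc* in all 21. The averaged difference changed sign for *Thbs4* with 1 surrogate variable (-0.61), for *Crispld2* (0.06) and *Lox* (0.26) with limma-voom, and without 1 library for *Thbs4* (range -1.38 to 0.66), *Prg4* (-3.18 to 1.25), *Fstl1* (-0.65 to 0.20) and *Crispld2* (-1.59 to 0.11), and no value with the changed sign passed. With every gene of at least 1 count the adjusted p of *Prg4* was 2.2e-61 (edgeR), far from 0.12 in the main fit. That of *Comp* was 2.1e-09 (edgeR), against 0.085 in the main fit, and the cause was not tested for either gene.

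Related genes past the threshold in IAIE cells were 6, 12 with every gene of at least 1 count, and 3 to 6 without 1 library (3 without IAIE control 1). In CD11c cells they were 19, 10 with at least 10 counts in every library, 11 with limma-voom, and 14 to 22 without 1 library. Interactions were 1 in the main fit, 16 with every gene of at least 1 count, 0 with at least 10 counts in every library, 9 with DESeq2, 0 with limma-voom, 2 with 1 surrogate variable and 0 to 4 without 1 library (4 without CD11c CGRP 3). With the replicate block they were 3, and with the replicate block within treatment 5. The blocks left 2 members past the threshold between subsets.

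Few counts limit these values: 5 of the 10 members held 3 counts or fewer in all CD11c control libraries together, so their folds rest on counting intervals. Within 1 group of 3, *Prg4* ranged from 2.07 to 1433 CPM.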
